A study of Mus musculus with 4 samples.

Results

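Kidneys of diabetic C57BL/6 mice were compared with kidneys of saline-injected C57BL/6 controls across all genes of an Illumina mouse bead array, which reads each transcript by the brightness of 1 or more probes. The comparison rests on 2 of the 4 libraries of the study, 1 for each side, a library being the column of values of a group. Per the series text each group had 6 kidneys, from mice of mixed sex aged 8 weeks, and diabetes or control treatment lasted 21 days, per the labels. The groups used are C57BL/6 diabetic, C57BL/6 control, FVB/N diabetic and FVB/N control, and the FVB/N groups are labelled with the same age and duration. No engineered allele is stated for either strain. How diabetes was induced, and whether a library is a pool of the 6 kidneys, was not given in the sources used here. With 1 library a side there is no replicate spread, no test was possible, and every difference is a description of these libraries. Of 15967 genes measured, 9201 form the comparison, those whose mean over the 4 libraries reached 5.49 on the log2 scale, the median over all probes. All differences are diabetic minus control on the log2 scale, so that 1 is a 2-fold difference, and levels are log2 intensities.

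In uncontrolled diabetes the proximal tubule, the segment that recovers glucose, amino acids and organic acids from the filtrate, faces a glucose load beyond its transport capacity. The kidney grows early, urine flow rises, and fuel use shifts as insulin is lost. Insulin drives fatty acid synthesis through the transcription factors SREBP-1c and ChREBP, and its absence lets fat tissue release its stores. Stressed tubule cells switch on injury genes such as Havcr1 and Lcn2, cell-cycle inhibitors and chemokines that attract leukocytes.

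The libraries carried the marks of kidney. The phosphate transporter Slc34a1 of the proximal tubule was at 14.76 in the diabetic and 14.97 in the control library, the loop transporter Slc12a1 at 13.07 and 12.89, and uromodulin, Umod, at 12.04 and 12.64. The podocyte gene Nphs1 was close to the expression minimum in both, at 5.77 and 5.71. Liver albumin, Alb, and pancreatic trypsinogen, Prss2, were near background, and so was Star of the adrenal gland. A reading near background does not show absence, since Sdha, Ndufs1 and Cpt1a, which kidney cells use, were near background in all 4 libraries as well. The Y-linked genes Kdm5d, Eif2s3y, Uty, Usp9y and Zfy1 also read near background in all 4, so the share of males in each library could not be read from them. Zfy2, the only Y-linked gene to reach the minimum on average, was at 5.49 in the diabetic and 5.84 in the control library, and at 5.43 and 5.80 in FVB/N. Nnt, which carries a known deletion in the C57BL/6J substrain, was near background in both strains and did not separate them.

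Most genes differed little between the diabetic and the control library. Of the 9201 genes, 4713 lay above 0 and 4480 below. The middle 50% of differences ran from -0.23 to 0.24 log2 around a median of 0.01, with a standard deviation of 0.39. In the diabetic library 95 genes were 2-fold or more higher, 1.03% of those compared, and 91, 0.989%, were 2-fold or more lower. At a 1.5-fold limit, used for gene lists, 565 genes were higher, 6.14%, and 584 lower, 6.35%. Each list count below is to be read beside these shares. Just inside the 2-fold limit lay the transporter Slco4a1 at 1.0008 and the lipid droplet gene Cidec at -1.003, and just outside it Epsti1 at 0.995 and Car3 at -0.993. In whole tissue, fewer cells of a type and less RNA per cell cannot be told apart, which holds for every result that follows.

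Dim genes filled much of both tails. In quintiles of genes by mean C57BL/6 level, those with medians of 5.66 and 6.30 had 8.53% and 12.3% at least 1.5-fold higher. Their lower shares were 8.04% and 12.3%, and the brightest quintile had 1.58% higher and 2.44% lower. Of the 95 higher genes, 38 had a control level below the expression minimum, and of the 91 lower genes 31 had a diabetic level below it, so their fold sizes are poorly fixed. Only 7 of the higher and 18 of the lower genes had both libraries at or above 7.26, the 75th percentile of all probes, among 4854 such genes. The standard deviation of the differences was 0.31 log2 for those bright genes and 0.45 for the 3933 dimmer ones in which neither library reached that level. Probes of the same gene gave a second view of precision. Over 1159 pairs of probes of the same gene, the differences had a Pearson correlation of 0.29, and the spread between such probes came to a standard deviation of 0.33 log2 for 1 probe. Genes are not independent replicates, and these values say nothing of variation between mice.

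**Figure D1:**
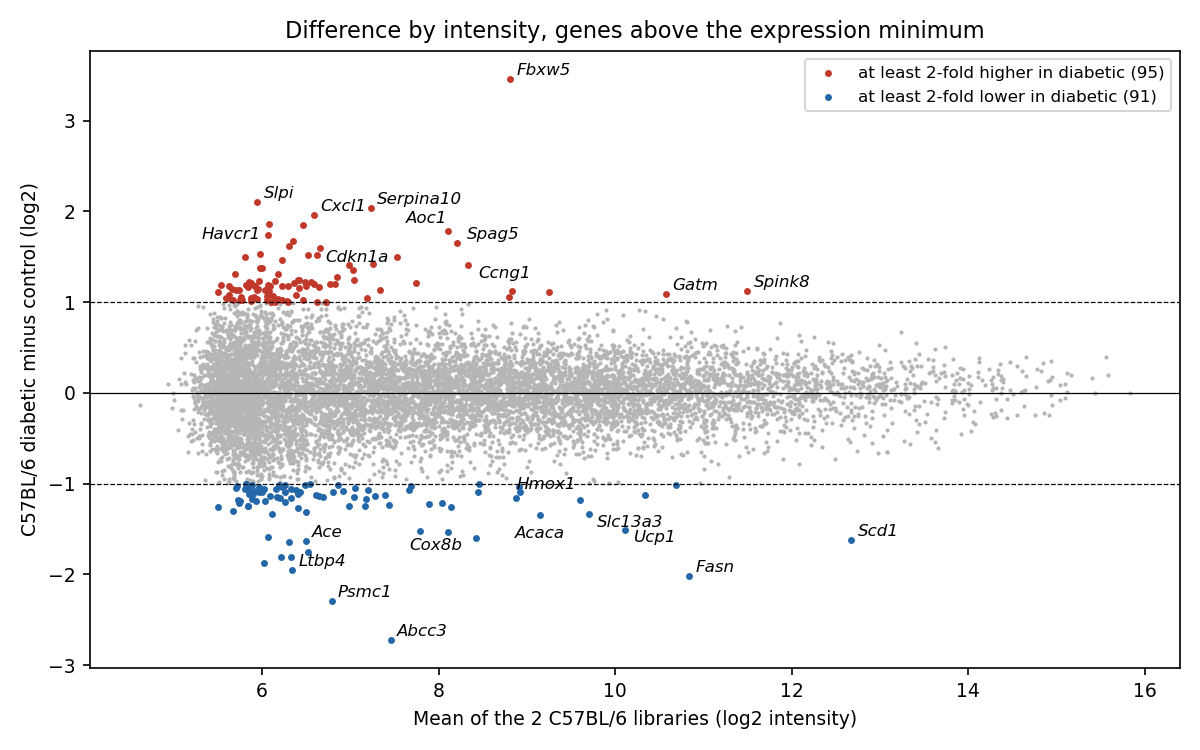
Each point is 1 of 9201 genes, placed by the mean log2 intensity of the C57BL/6 diabetic and control libraries (horizontal axis) and by their log2 difference (vertical axis); dashed lines mark 2-fold. The 95 red and 91 blue genes crowd at low intensity, and Fasn at -2.02, Scd1 at -1.62, Spink8 at 1.13 and Gatm at 1.09 are among the few bright genes outside the lines.

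Genes of fatty acid and triglyceride synthesis were lower in the diabetic library. Of 21 expressed members among 25 measured, 8 were at least 1.5-fold lower and 0 higher, against 6.35% and 6.14% of all genes, and the median was -0.41 log2 beside 0.01 over all genes. Fatty acid synthase, Fasn, which builds palmitate, had a level of 9.83 in the diabetic and 11.85 in the control library, a difference of -2.02. In FVB/N it stood at 10.04 in the diabetic and 11.84 in the control library, so both diabetic libraries lay below both controls. Stearoyl-CoA desaturase, Scd1, which makes oleate from stearate, was at 11.87 in the diabetic and 13.48 in the control library, and at 12.62 and 13.71 in FVB/N. Acetyl-CoA carboxylase, Acaca, which supplies malonyl-CoA for chain growth, was at 8.48 and 9.83, a difference of -1.35, and its other probe gave -0.73. Thrsp, a nuclear protein tied to lipogenesis, was at 5.12 in the diabetic library, below the expression minimum, and at 6.11 in the control. The elongase Elovl6, which extends palmitate to stearate, was lower by a smaller amount, at 7.82 against 8.46. The lipid droplet hydrolase Pnpla3 was at 5.37 and 5.99. Synthesis from acetyl-CoA through to desaturation thus held the list's lowest members, whereas the acyltransferase Agpat2 at 0.55 was the highest.

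The start sites of Fasn and Thrsp are shown as examples of lipogenic genes that were lower in both strains. The differences of Fasn were -2.02 in C57BL/6 and -1.80 in FVB/N, and those of Thrsp -0.99 and -1.35. Scd1, at -1.62 and -1.10, was also lower in both and is not shown. The windows run from 250 bases before to 50 bases after the start, are read 5′ to 3′ on the gene's strand, and come from RefSeq on GRCm38.p6. Fasn lies on the minus strand at chr11:120824498-120824797 and Thrsp on the minus strand at chr7:97417501-97417800. Capitals mark CCAAT, the box bound by the factor NF-Y, or its reverse complement ATTGG; in Fasn a forward and a reverse match overlap.
Fasn: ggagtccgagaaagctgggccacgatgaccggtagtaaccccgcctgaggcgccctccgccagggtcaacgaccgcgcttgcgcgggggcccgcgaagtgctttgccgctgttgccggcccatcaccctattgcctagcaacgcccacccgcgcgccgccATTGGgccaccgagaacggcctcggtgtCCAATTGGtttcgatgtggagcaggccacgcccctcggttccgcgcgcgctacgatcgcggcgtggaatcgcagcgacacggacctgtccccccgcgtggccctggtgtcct
Thrsp: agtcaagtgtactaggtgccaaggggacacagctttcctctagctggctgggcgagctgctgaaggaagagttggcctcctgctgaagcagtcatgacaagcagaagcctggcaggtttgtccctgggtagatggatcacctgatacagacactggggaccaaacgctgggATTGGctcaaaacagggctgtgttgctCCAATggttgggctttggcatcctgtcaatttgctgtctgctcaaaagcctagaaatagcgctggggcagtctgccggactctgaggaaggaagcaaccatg
In Fasn the matches began 90, 62 and 59 bases before the start, and in Thrsp 79 and 52 bases before it. Of the 21 expressed list members 16 had a window in the table, 20 windows in all, and 10 of the 20 held CCAAT on either strand, 50%, beside 37.4% of all 32851 windows and 37.0% of the 9540 windows of expressed genes. The E-box CACGTG, which reads the same on both strands, was in 4 of the 20, 20%, beside 7.15% of all windows and 9.75% of those of expressed genes. A match is only a run of letters and was set beside the levels as a description.

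Markers of fat tissue were lower as well. Of 15 expressed fat genes among 23 measured, 10 were at least 1.5-fold lower and 1 higher, with a median of -0.82 log2. Uncoupling protein, Ucp1, the heat-producing carrier of brown fat, was at 9.36 in the diabetic and 10.87 in the control library, and at 4.93 and 10.20 in FVB/N. Cox8b, a cytochrome oxidase subunit of brown fat and muscle, was at 7.63 and 9.22, and Cidea, which coats brown fat lipid droplets, at 5.31 and 7.12. Adipoq, the hormone adiponectin made by fat cells, was at 9.21 in the diabetic and 10.20 in the control library. The carbonic anhydrase Car3 of fat and muscle was at 9.43 and 10.42. In all 5 of these genes both diabetic libraries lay below both control libraries. Ucp1, Cox8b and Cidea were also named for being lower in both strains, so for them this was set by the choice. Cidec, another lipid droplet gene, was at 5.31 and 6.31 in C57BL/6, but at 5.69 and 5.55 in FVB/N. Of the 15 fat genes, 6 were at least 1.5-fold lower in both strains. Cox7a1, a cytochrome oxidase subunit of brown fat, heart and muscle, was the 1 member at least 1.5-fold higher, at 10.43 against 9.84. None of the 8 skeletal muscle markers measured, Acta1 and Ckm among them, reached the expression minimum, so muscle could not be assessed. Over the 15 fat genes the mean log2 level was 7.71 in the diabetic and 8.44 in the control library, and 7.38 and 8.50 in FVB/N. The amount of fat in each sample was not given in the sources used here, Thrsp is on both lists, and the part of fat tissue in the lower lipogenic levels was not tested.

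Cholesterol synthesis and fatty acid oxidation had medians near 0. Cholesterol synthesis had a median of -0.08 log2 over 18 expressed genes, with 1 at least 1.5-fold higher and 0 lower. Its kinase Pmvk was the higher one, at 7.14 in the diabetic and 6.48 in the control library, while Mvd, the next enzyme of the mevalonate pathway, stood at 5.93 and 6.47. Fatty acid oxidation and ketone bodies had a median of 0.03 over 30 genes, with 2 higher and 2 lower. The long-chain dehydrogenase Acadl was at 10.11 and 9.48, and Angptl4, a fasting-induced inhibitor of lipoprotein lipase, at 9.98 and 9.39 by its brightest probe, although a second Angptl4 probe gave -0.45. Bdh1, which interconverts ketone bodies, was lower at 11.36 against 12.01, as was the fatty acid transport protein Slc27a2 at 12.76 against 13.40. Among apolipoproteins and plasma carriers 4 of 19 were at least 1.5-fold lower and 1 higher, with a median of -0.08, or 0.35 under a filter at percentile 75. Apoe, the ligand of lipoprotein uptake, was at 9.38 in the diabetic and 10.08 in the control library. In FVB/N Apoe had the opposite order, 10.57 in the diabetic and 9.17 in the control library.

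**Figure D2:**
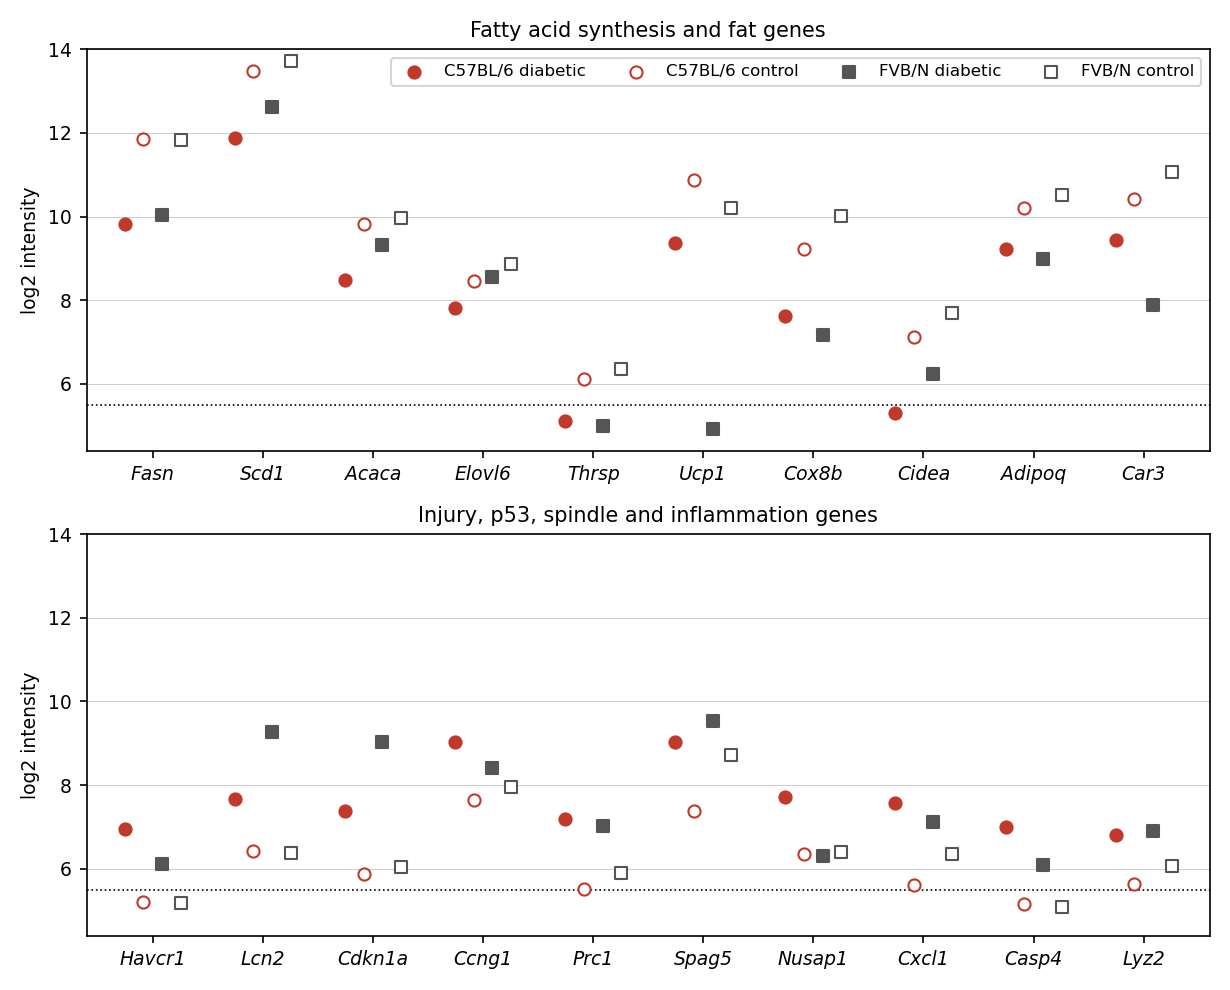
Log2 intensity (vertical axis) of 20 genes in the 4 libraries, 1 point per library; the dotted line is the expression minimum of 5.49. In the upper panel filled diabetic points lie below the open control points of the same strain for all 10 genes, from Fasn at 9.83 against 11.85 to Car3 at 9.43 against 10.42 in C57BL/6. In the lower panel the filled C57BL/6 point lies above the open one for all 10, and the FVB/N points of Nusap1, at 6.30 and 6.41, do not follow. The genes were picked with their C57BL/6 direction known, so the shared direction within each panel was set by the choice there.

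Several genes of tubular injury stood higher in the diabetic library, but the list as a whole shifted little. Of 17 expressed members 4 were at least 1.5-fold higher and 0 lower, and the median was 0.12 log2. Havcr1, the kidney injury molecule displayed by damaged proximal tubule cells, was at 6.94 in the diabetic library against 5.20 in the control, which is below the expression minimum. Lcn2, a lipocalin that binds bacterial siderophores and is shed by injured tubules, was at 7.66 and 6.42. Cdkn1a, given with the p53 targets, was among the 4. The copper-containing ferroxidase ceruloplasmin, Cp, was at 7.91 and 7.08. The remaining injury genes lay within the 1.5-fold limit, with clusterin, Clu, at 12.68 and 12.21 and the adhesion molecule Vcam1 at 9.57 and 9.02. In FVB/N Havcr1 was at 6.12 in the diabetic and 5.19 in the control library, and Lcn2 at 9.26 and 6.38.

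Among 14 targets of the tumour suppressor p53, 5 were 1.5-fold or more higher and 1 was lower, beside 6.14% and 6.35% of all genes. The median was 0.29 log2, or 0.15 over all 18 measured. Cdkn1a, the inhibitor p21 of cyclin-dependent kinases, was at 7.38 in the diabetic and 5.86 in the control library, and its probes gave 1.02 and 1.52. Cyclin G1, Ccng1, which feeds back on p53 through Mdm2, was at 9.04 and 7.63, and its expressed probes gave 1.02 and 1.41. With all Ccng1 probes averaged, dim ones included, the difference was 0.80. The other higher members were Phlda3, an inhibitor of Akt, at 7.05 against 6.22, the kinase Plk2 at 7.50 against 6.90 and Gadd45b at 6.10 against 5.50. The lower member was Gtse1, which restrains p53 in G2 phase, at 5.60 against 6.21. Mdm2 itself, the ligase that degrades p53, was at 9.94 and 9.72. In FVB/N Cdkn1a stood at 9.03 in the diabetic and 6.05 in the control library, and it was the 1 target at least 1.5-fold higher in both strains. Phlda3 and Plk2 had the opposite order in FVB/N, at 5.77 against 6.27 and 6.91 against 7.74.

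Cell division genes were mostly above 0, beside 4713 of all 9201 genes. Of 45 genes measured 23 were expressed, and of these 20 were above 0, 5 at least 1.5-fold higher and 0 lower, with a median of 0.33 log2; over all 45 the median was 0.20. Prc1, which bundles microtubules between the separating chromosomes, was at 7.18 in the diabetic and 5.51 in the control library. Spag5, or astrin, which holds the spindle poles together, was at 9.03 and 7.38. Nusap1, another spindle microtubule binder, was at 7.71 and 6.36, and the centromere histone Cenpa at 8.83 and 7.85. The transcription factor E2f1, which starts S phase, completed the 5 at 6.36 against 5.72, and the replication licensing inhibitor geminin, Gmnn, which lies outside the list, was at 8.45 and 7.50. Averaging all probes of a gene gave 0.69 for Nusap1 and 0.81 for Spag5, so their 2-fold call rested on the brightest probe. Cdk1 and Top2a, which define cycling cells, read near background in all libraries except that Cdk1 was at 5.61 in the FVB/N diabetic library. Both spindle genes Prc1 and Spag5 were also higher in FVB/N, at 7.01 against 5.89 and 9.53 against 8.72, whereas Nusap1 and Cenpa were at 6.30 and 7.44 in the FVB/N diabetic and 6.41 and 7.74 in the FVB/N control library.

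The start sites of Prc1, Spag5 and Cenpa are shown because promoters of mitotic genes often pair CCAAT boxes with a cell cycle homology region near the start, the site at which the MuvB complexes act. The windows are again from RefSeq on GRCm38.p6, 250 bases before to 50 after the start and all on the plus strand, at chr7:80294201-80294500 for Prc1, chr11:78301341-78301640 for Spag5 and chr5:30666636-30666935 for Cenpa. Capitals mark CCAAT or its reverse complement ATTGG, and TTTGAA, the core of the homology region, or its reverse complement TTCAAA.
Prc1: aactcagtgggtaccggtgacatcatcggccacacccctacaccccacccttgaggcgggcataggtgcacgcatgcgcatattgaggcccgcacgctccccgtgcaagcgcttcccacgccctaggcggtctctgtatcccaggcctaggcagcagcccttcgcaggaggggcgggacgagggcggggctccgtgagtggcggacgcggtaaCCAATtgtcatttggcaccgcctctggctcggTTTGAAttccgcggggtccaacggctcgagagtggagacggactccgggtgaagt
Spag5: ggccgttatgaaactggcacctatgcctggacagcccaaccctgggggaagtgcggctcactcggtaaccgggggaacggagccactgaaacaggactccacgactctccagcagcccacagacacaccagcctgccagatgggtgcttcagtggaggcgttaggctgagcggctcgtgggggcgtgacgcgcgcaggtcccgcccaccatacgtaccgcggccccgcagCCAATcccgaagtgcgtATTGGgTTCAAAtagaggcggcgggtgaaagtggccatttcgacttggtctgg
Cenpa: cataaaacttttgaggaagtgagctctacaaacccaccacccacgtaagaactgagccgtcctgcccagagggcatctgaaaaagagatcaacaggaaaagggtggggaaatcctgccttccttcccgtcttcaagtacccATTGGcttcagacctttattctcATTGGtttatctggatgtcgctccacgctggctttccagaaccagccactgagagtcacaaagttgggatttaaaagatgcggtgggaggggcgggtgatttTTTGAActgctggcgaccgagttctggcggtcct
In Prc1 the box began 37 bases and the homology region 5 bases before the start. In Spag5 boxes began 20 and 3 bases before the start and the homology region at base 4 after it. In Cenpa boxes began 109 and 86 bases before the start and the homology region at base 17 after it. Of the 23 expressed list members 18 had a window, 21 windows in all. CCAAT was in 15 of the 21, 71.4%, beside 37.4% of all windows and 37.0% of those of expressed genes. The homology core was in 9, 42.9%, beside 17.9% and 12.5%, and both were in 7, 33.3%, beside 6.95% and 4.82%. These shares describe the list and were not tested.

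Immediate early genes, which answer a stimulus within minutes, were mixed. The transcription factor Fos was at 6.74 in the diabetic and 5.21 in the control library, which is below the minimum, and Egr1 at 10.23 and 9.36. These were the 2 of 17 expressed members at least 1.5-fold higher. Fosl2, a Fos relative, was the 1 lower member, at 6.29 against 6.90, and its second probe gave 0.17. The list median was 0.04 log2, close to that of all genes.

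Chemokines were higher in the diabetic library for a minority of the list. Of 24 expressed members among 49 measured, 7 were at least 1.5-fold higher and 0 lower, beside 6.14% and 6.35% of all genes. The median was 0.11 log2. Cxcl1, which attracts neutrophils, was at 7.57 in the diabetic and 5.61 in the control library, and at 7.11 and 6.36 in FVB/N. The monocyte attractant Ccl8 was at 6.67 and 5.29, Ccl9 at 6.27 and 5.14, and the interferon-induced Cxcl10, which attracts T cells, at 7.17 and 5.95. In FVB/N Cxcl10 was near background in both libraries. Ccl12 was at 6.18 and 5.22, and a second probe of it gave -0.31. Ccl25 of the thymus and gut was at 6.74 and 5.72, or 0.64 apart with its probes averaged, and the fractalkine receptor Cx3cr1 of monocytes at 6.44 and 5.54. For Ccl8, Ccl9 and Ccl12 the control level was below the minimum, and Ccl2, the main monocyte attractant, was below it in all 4 libraries.

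Of 25 expressed cytokines, toll-like receptors and caspases, 5 were 1.5-fold or more higher and 2 were lower. The median was 0.17 log2, or 0.08 over all 43 measured. The inflammatory caspase Casp4, which senses bacterial lipopolysaccharide inside cells, was at 7.01 in the diabetic and 5.15 in the control library. Gasdermin D, Gsdmd, the pore it cleaves, was at 6.59 and 5.61, and interleukin-1 beta, Il1b, at 6.15 and 5.10. Socs3, which curbs cytokine signalling, was at 7.16 and 6.39, and Slpi, an elastase inhibitor, completed the 5. Sigirr, outside the list, restrains interleukin-1 receptors and was at 6.51 and 5.33. For Casp4, Il1b, Slpi and Sigirr the control level was below the expression minimum, so their fold sizes are poorly fixed. The tumour necrosis factor gene Tnf was near background throughout. The lowest member was Cd180, which resembles toll-like receptors and sits on B cells, at 5.43 against 7.24, and in FVB/N at 6.36 against 7.49.

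Markers of macrophages and dendritic cells were mostly above 0, beside 4713 of all 9201 genes. Of 16 expressed members 14 were above 0, 5 at least 1.5-fold higher and 0 lower, with a median of 0.29 log2. Lysozyme, Lyz2, was at 6.81 in the diabetic and 5.64 in the control library, and averaging its probes brought the difference to 0.72. The complement subunit C1qc was at 6.82 and 6.01, C1qb at 6.85 and 6.38, and C1qa at 6.57 and 6.48. Aif1, a calcium-binding protein of macrophages, was at 7.95 and 7.30, with probes at 0.64 and 0.65. The defining marker Adgre1, or F4/80, was at 8.65 and 8.36, inside the 1.5-fold limit. Over the 16 markers the mean log2 level was 7.10 in the diabetic and 6.73 in the control library, and the part of macrophage number in the chemokine and cytokine levels was not tested. In FVB/N the list had a median of -0.07 and Adgre1 stood at 6.72 in the diabetic and 8.18 in the control library.

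Lymphocyte markers did not follow. Of 8 expressed genes of T and natural killer cells, 3 were past 1.5-fold lower and 0 higher, and the 3 were the costimulatory receptor Cd28 at 4.88 against 5.83, Nkg7 at 5.27 against 5.98 and Il2rb at 5.61 against 6.23. Cd3e and Cd3g, which define T cells, and Cd79a, which defines B cells, were below the minimum on average. Genes of antigen presentation had a median of 0.01 log2 over 15 members with 0 higher and 0 lower, and B2m, the light chain of class I molecules, was at 12.66 and 12.65. Interferon-stimulated genes had a median of -0.25 over 19, with 3 higher and 2 lower. Among them the regulator Irf1 was at 6.41 in the diabetic and 7.08 in the control library, and Ifi35 at 6.28 and 5.49.

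S100 proteins, small calcium binders, formed the list with the highest median among pathway lists drawn in the plot of gene lists. All 10 expressed members were above 0, 5 were at least 1.5-fold higher, and the median was 0.61 log2, or 0.33 over all 14 measured. S100a8 and S100a9, the calprotectin subunits of neutrophils, were at 6.21 and 6.48 in the diabetic library and at 5.22 and 5.27, both below the minimum, in the control. S100g, the calbindin that carries calcium through tubule cells, was at 11.79 in the diabetic and 11.07 in the control library. S100a16 was at 6.49 and 5.78, S100a4 of fibroblasts and leukocytes at 7.60 and 6.95, and S100a10, partner of annexin A2, at 12.39 and 11.82. The other neutrophil markers were uneven, with Ltf at 5.69 and 5.35 and Retnlg at 5.26 and 6.05.

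Peptidase inhibitors supplied several of the largest positive differences. Of 35 expressed serpins and other inhibitors, 7 were at least 1.5-fold higher and 2 lower, with a median of 0.14 log2. Slpi, which blocks leukocyte elastase, was at 7.00 in the diabetic and 4.90 in the control library, and at 5.63 and 5.05 in FVB/N. Serpina10, which with protein Z inhibits coagulation factor Xa, was at 8.25 and 6.21, and at 8.73 and 7.08 in FVB/N. Itih3, a heavy chain that is linked to hyaluronan, was at 7.46 and 5.86. Serpinb6b was at 8.35 and 7.14, and the acute phase inhibitor Serpina3n at 6.14 and 5.30. The control levels of Slpi and Serpina3n were below the expression minimum. Spink8, a Kazal-type inhibitor that is not on the list, was at 12.06 and 10.93, and at 7.86 and 6.55 in FVB/N, which made it one of the bright genes higher in both diabetic libraries. On the lower side Spint2, an inhibitor of membrane serine peptidases, was at 5.71 against 6.69, while its other probe gave 0.38.

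**Figure D3:**
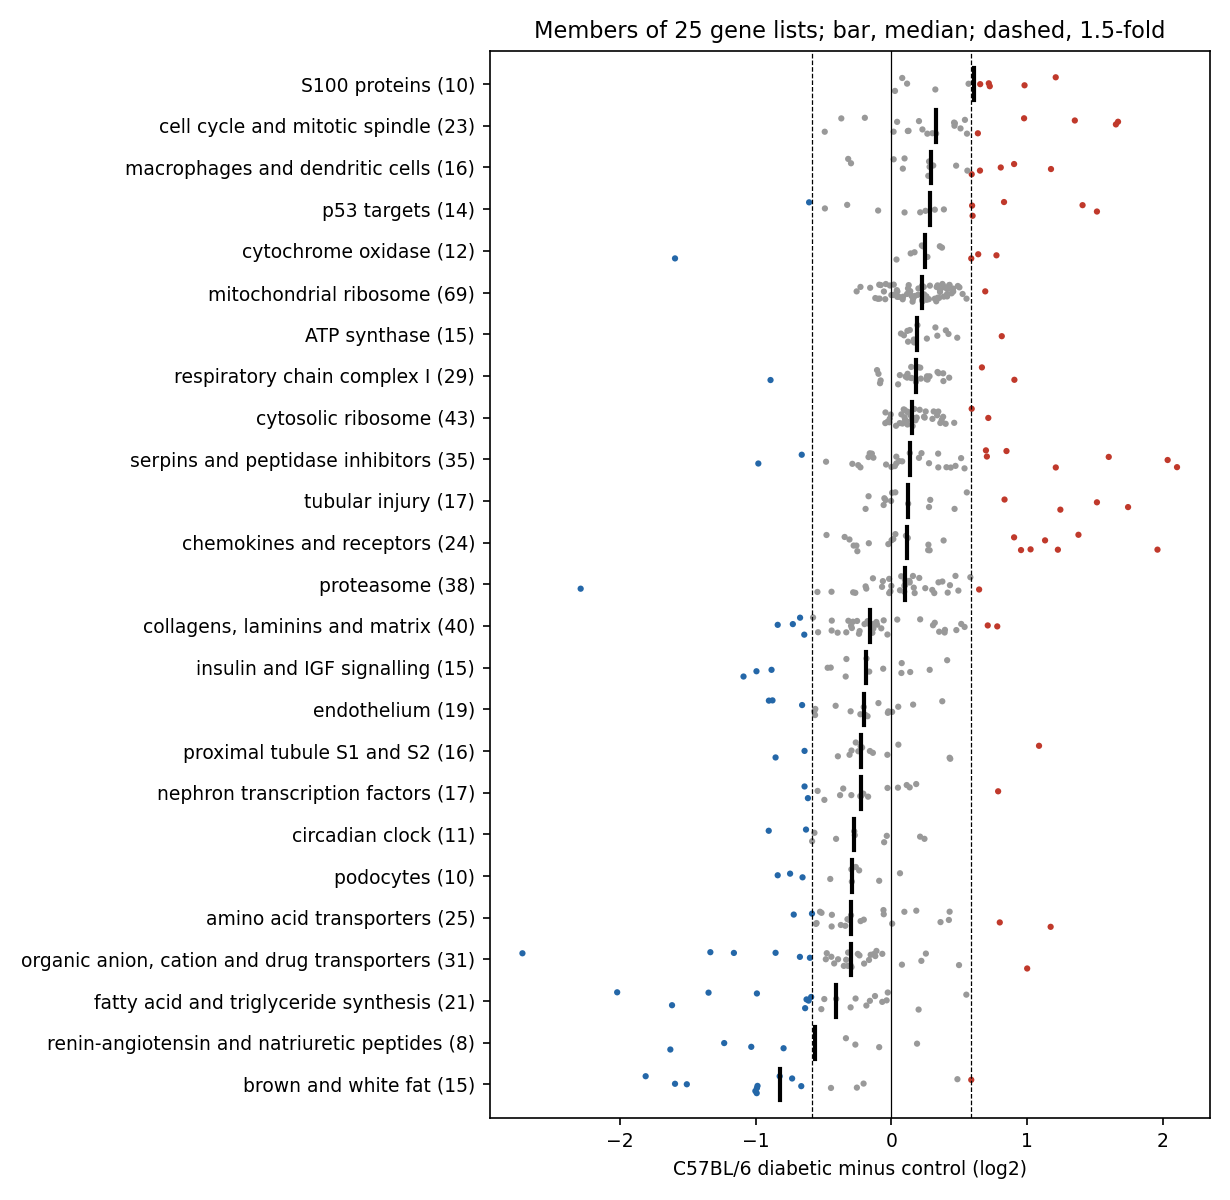
Log2 difference, diabetic minus control (horizontal axis), of each expressed member of 25 gene lists in C57BL/6, sorted by list median (black bar), with the number of members in brackets; dashed lines mark 1.5-fold and colours mark members beyond them. Medians run from -0.82 for fat genes to 0.61 for S100 proteins, and most members of most lists lie between the dashed lines.

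Transporters of organic anions, cations and drugs were mostly lower. Of 31 expressed members among 50 measured, 5 were above 0, 6 at least 1.5-fold lower and 1 higher, with a median of -0.30 log2. Abcc3, an efflux pump for glucuronides and bile acids, was at 6.10 in the diabetic and 8.82 in the control library, and at 7.14 and 7.78 in FVB/N. The sodium-dicarboxylate cotransporter Slc13a3, which supplies the dicarboxylates exchanged for organic anions, was at 9.04 and 10.37. In FVB/N Slc13a3 was at 10.17 and 10.32, so the C57BL/6 diabetic library stood apart from the other 3. The basolateral organic anion transporters Slc22a7 and Slc22a8 were at 8.30 and 7.60 in the diabetic library, against 9.46 and 8.45 in the control. Both were also lower in the FVB/N diabetic library, at 8.18 and 7.07 against 9.40 and 8.59. The main organic anion transporter Slc22a6 was at 11.54 and 11.84, inside the limit. Slco4a1, a thyroid hormone and drug carrier, was the 1 higher member at 7.12 against 6.12, but averaging its probes gave 0.49.

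Carriers outside that list lay on both sides. Slc17a2, of the phosphate and urate transporter family, was at 7.03 in the diabetic and 8.55 in the control library, and its probes gave -1.52 and -1.23. Slc9a8, a sodium-proton exchanger, was at 7.35 and 8.88, with probes at -1.53 and -0.77. The sphingosine transporter relative Spns3 was at 8.37 and 9.47, and at 6.79 and 8.39 in FVB/N. The metal carrier Slc39a8, which takes up zinc and manganese, was at 7.38 in the diabetic and 5.54 in the control library, with an average over its probes of 1.05. Its FVB/N levels were 6.24 and 6.15.

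Amino acid transporters had a median of -0.30 log2 over 25 expressed members, 8 of them above 0. At 1.5-fold 2 were higher and 2 lower, beside 6.14% and 6.35% of all genes. The neutral amino acid carrier Slc1a4 was at 9.55 in the diabetic and 10.27 in the control library, and Slc43a2, a carrier of large neutral amino acids, was the other lower member with a difference of -0.59. Slc3a1, the cystine transporter subunit mutated in cystinuria, was inside the limit at 11.57 and 12.10. Slc36a1, a proton-coupled carrier of the lysosome, was higher at 7.08 against 5.91, and so was Slc6a12, which takes up the osmolyte betaine, at 6.80 against 6.00. In FVB/N Slc6a12 was at 10.12 in the diabetic and 7.85 in the control library. Glucose carriers lay inside the limit, with the proximal glucose transporter Slc5a2 at 11.73 and 11.89 and Slc5a1 at 8.94 and 9.43. The gluconeogenic enzymes G6pc and Pck1 were at 13.06 and 12.80 in the diabetic library and at 13.62 and 13.27 in the control. That list had a median of -0.21 over 18 genes, 1 of them higher, the thioredoxin-interacting protein relative Arrdc4 at 8.38 against 7.70.

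Amino acid metabolism had a median of -0.09 log2 over 38 genes, with 2 at least 1.5-fold higher and 3 lower. Aoc1, a diamine oxidase for histamine and polyamines, was at 8.99 in the diabetic and 7.21 in the control library, and at 9.09 and 8.45 in FVB/N. Gatm, the first enzyme of creatine synthesis in the proximal tubule, was at 11.12 and 10.03, but at 10.33 and 10.71 in FVB/N. The glycine cleavage decarboxylase Gldc was lower at 8.29 against 9.24, and the tyrosine catabolic enzyme Hpd at 10.02 against 10.62. Cbs, which joins homocysteine to serine, was at 6.11 and 7.08, while a second probe gave 0.72. The uridine phosphorylase Upp2, which lies outside this list, was at 6.98 and 5.95, and its expressed probes ran from 0.92 to 1.84.

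Cytochrome P450 enzymes of families 2 and 4 had a median of 0.01 log2. Past 1.5-fold, 4 of 20 were higher and 0 lower, beside 6.14% and 6.35% of all genes. The 4 were Cyp4a12b, Cyp2b10, Cyp4x1 and Cyp2d9. The fatty acid hydroxylase Cyp4a12b was at 6.85 in the diabetic and 5.86 in the control library, and the drug-inducible Cyp2b10 at 6.27 and 5.39. Cyp4x1 was at 6.14 and 5.34, and Cyp2d9 at 11.05 and 10.44. Cyp2d9 and Cyp7b1, a steroid hydroxylase at 6.31 against 5.18, belong to the genes higher in male mouse kidney. In that list 3 of 9 were past 1.5-fold higher and 0 lower, and Ugt8a was the remaining one, at 5.91 against 5.08. For Cyp2b10, Cyp4x1, Cyp7b1 and Ugt8a the control level was below the expression minimum, so their fold sizes are poorly fixed. The male list had a median of 0.17 log2, or -0.10 with both C57BL/6 libraries required to reach the minimum. In the list of genes higher in female kidney 0 of 10 were higher and 2 lower, which were Abcc3 and Slc22a7. Kap, the androgen-regulated protein of the proximal tubule, was at 14.79 in the diabetic and 15.04 in the control library. The mice were of mixed sex, and the part of the sex make-up of each library in these levels was not tested.

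The renin-angiotensin and natriuretic peptide list had one of the lowest medians, -0.57 log2 over 8 expressed of 14 measured genes, with 4 at least 1.5-fold lower and 0 higher. Over all 14 the median was -0.18. Ace, which forms angiotensin II and is bound to the proximal brush border in mouse kidney, was at 5.68 in the diabetic and 7.31 in the control library, and averaging its probes gave -0.86. Corin, the peptidase that activates atrial natriuretic peptide, was at 6.83 and 8.06, and at 6.75 and 7.73 in FVB/N. Npr2, the receptor of C-type natriuretic peptide, was at 8.39 and 9.42, and at 8.30 and 9.60 in FVB/N. The angiotensin-trimming aminopeptidase Anpep was at 7.69 and 8.49. Agtr1a, the main angiotensin receptor, was at 10.33 and 10.60, and angiotensinogen, Agt, at 6.42 and 6.23. The endothelin-converting enzyme Ece1, on no list here, was at 8.23 and 9.10, with probes at -0.87 and -0.71.

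Growth hormone and insulin-like growth factor genes were lower in 3 of 15 cases and higher in 0, beside 6.35% and 6.14% of all genes. Their median was -0.18 log2. The scavenging receptor Igf2r, which clears insulin-like growth factor 2, was at 5.88 in the diabetic and 6.97 in the control library, and the growth factor Igf2 itself at 8.12 and 9.01. Socs2, which dampens growth hormone signalling, was at 10.47 and 11.46. In FVB/N Igf2 and Socs2 were likewise lower in the diabetic library, at 7.95 and 9.81 against 9.27 and 10.80, while Igf2r was at 8.01 and 7.10. The growth hormone receptor Ghr was at 13.27 and 13.61 in C57BL/6, inside the limit, and the insulin receptor Insr read near background.

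Clock genes had a median of -0.27 log2 over 11, with 2 at least 1.5-fold lower and 0 higher. The repressors Cry2 and Per2 were at 5.10 and 9.46 in the diabetic library, against 6.00 and 10.09 in the control. Dbp, a strongly rhythmic output gene, was at 13.29 and 13.32. Noct, a rhythmic phosphatase that lies outside the list, was at 10.35 and 9.44, with probes at 0.87 and 0.91.

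Corticosteroid receptors and targets were higher in 5 of 14 cases and lower in 1, beside 6.14% and 6.35% of all genes. Their median was 0.25 log2. Of the 5, Cdkn1a and Lcn2 are also injury or p53 genes, and Mt2, Hsd11b1 and Angptl4 are not. Hsd11b1, which regenerates active glucocorticoid, was at 11.70 in the diabetic and 11.02 in the control library, with probes at 0.61 and 0.68. The metallothionein Mt2 was at 10.26 and 9.48. Fkbp5, a cochaperone of the glucocorticoid receptor and a direct target of it, had the opposite sign at 7.91 against 8.55, and Tsc22d3, another classical target, was near background. In FVB/N Fkbp5 was at 9.28 in the diabetic and 8.48 in the control library.

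Genes of vitamin D, calcium and phosphate had 3 of 15 past 1.5-fold higher and 0 lower, around a median of -0.12 log2. The 3 were Cyp27b1, which makes active vitamin D, at 5.89 in the diabetic and 5.01 in the control library, the sodium-calcium exchanger Slc8a1 at 9.34 and 8.60, and S100g. The vitamin D receptor Vdr was at 10.15 and 10.74, and Cyp24a1, which inactivates vitamin D, at 10.04 and 10.49. For Cyp27b1 the control level was below the minimum, and in FVB/N the order was opposite, 5.48 in the diabetic and 5.91 in the control library.

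Mitochondrial genes showed small, widely shared positive differences. For comparison, 4713 of all 9201 genes were above 0. All 15 expressed genes of ATP synthase were above 0, with a median of 0.19 log2, and 1 was at least 1.5-fold higher, Atp5pb of the stator stalk, at 10.95 in the diabetic and 10.14 in the control library. Of 29 genes of complex I, 24 were above 0, with a median of 0.18, and 2 were at least 1.5-fold higher and 1 lower. Ndufb2 was at 10.79 and 9.88, Ndufb4 at 13.57 and 12.90, and Ndufb11 at 5.55 and 6.44. In cytochrome oxidase 11 of 12 were above 0, with a median of 0.25. Cox7b was at 12.25 and 11.48 and Cox7a2 at 12.41 and 11.77, whereas Cox8b, the subunit shared with the fat list, was the lowest. Mitochondrial ribosomal proteins had 56 of 69 above 0 and a median of 0.23, but only 1 member, Mrpl15, at least 1.5-fold higher, at 6.15 against 5.46. The FVB/N medians were 0.20 for ATP synthase, 0.21 for complex I, 0.25 for cytochrome oxidase and 0.26 for the mitochondrial ribosome.

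Enzymes of the tricarboxylic acid cycle did not show this, with a median of -0.03 log2 and 8 of 17 above 0. The succinyl-CoA ligase Sucla2 was at 9.17 in the diabetic and 8.50 in the control library, and the oxoglutarate dehydrogenase Ogdh at 9.96 and 10.56. Glycolysis had a median of -0.05 over 15, with Eno3, the muscle-type enolase, at 5.75 against 4.80 and Aldoc at 8.81 against 8.23. Cytosolic ribosomal proteins had 37 of 43 above 0 and a median of 0.15, with Rpl13a at 11.05 and 10.34 and Rplp0 at 9.35 and 8.75. For proteasome subunits the median was 0.10 over 38. The base ATPase Psmc1 was far from the rest at 5.64 against 7.93, and the lid subunit Psmd6 was at 9.25 and 8.60, with probes at 0.65 and 1.33.

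The length of the gene moved with these differences. Across 9197 genes with a known span on the genome, 99.96% of those compared, the Spearman correlation of span with the C57BL/6 difference was -0.15, given as a description over genes of the same libraries. In the quintile of shortest genes, with a median span of 3.53 kb, 7.83% were past 1.5-fold higher and 3.86% lower. In the quintile of longest genes, with a median of 106 kb, 4.46% were higher and 10.2% lower. The median spans of the lists with many positive differences were short, at 3.14 kb for the cytosolic ribosome, 7.13 kb for ATP synthase, 7.08 kb for complex I, 7.63 kb for the mitochondrial ribosome and 2.85 kb for S100 proteins. Among lists with medians below 0, spans were 66.1 kb for podocytes, 69.6 kb for matrix and 38.2 kb for organic ion transporters, but 21.7 kb for fatty acid synthesis, 9.36 kb for fat, 7.98 kb for T and NK cells, 6.75 kb for interferon-stimulated genes and 5.42 kb for urothelium. The TGF-beta list had a span of 70.7 kb and a median difference of -0.02, and the cell cycle list 21.0 kb and 0.33, so the lists did not all follow span. RNA quality values are not used here, and the part of gene length or RNA quality in the list medians was not tested.

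**Figure D4:**
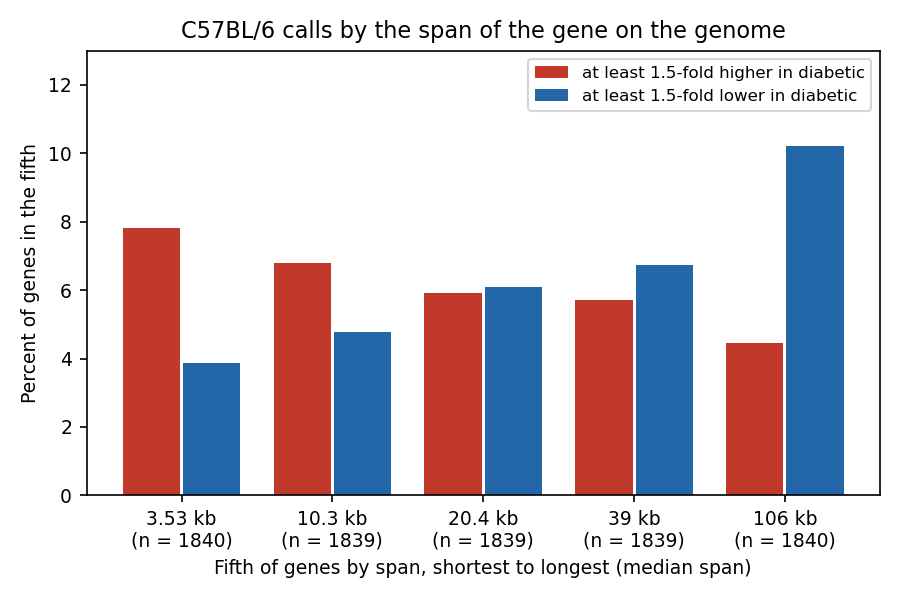
Percent of genes (vertical axis) at least 1.5-fold higher or lower in the C57BL/6 diabetic library, in 5 bins of genes sorted by span on the genome (horizontal axis, median span and number of genes in each). The share of higher genes goes down from 7.83% to 4.46% and that of lower genes goes up from 3.86% to 10.2% with span.

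Glomerular and vascular markers leaned lower. Podocyte genes had a median of -0.29 log2 over 10 expressed members, 1 above 0, with 3 at least 1.5-fold lower and 0 higher. Podxl, the sialoprotein that keeps foot processes apart, was at 11.18 in the diabetic and 11.84 in the control library, and the nephronectin gene Npnt at 5.61 and 6.36. The type IV collagen chain Col4a3 of the glomerular basement membrane was at 5.24 and 6.07, while Nphs1, nephrin of the slit diaphragm, was 0.06 apart. Among 19 endothelial genes 3 were lower and 0 higher, with a median of -0.20. They were Ehd3 of glomerular endothelium at 5.67 against 6.57, von Willebrand factor, Vwf, at 5.96 against 6.83, and the junctional cadherin Cdh5 at 7.24 against 7.90. Pecam1, present on all endothelium, was at 6.56 and 6.73. Mesangial, pericyte and smooth muscle markers had 0 higher and 0 lower of 9, with Acta2 at 12.08 and 12.13.

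Matrix genes, whose accumulation marks later diabetic kidney disease, did not stand higher as a group. Among 40 expressed genes, 2 were past 1.5-fold higher and 4 lower, with a median of -0.15 log2. The fibrillar collagen Col3a1 was at 9.75 in the diabetic and 8.97 in the control library, whereas the type I collagen chain Col1a2 was at 7.77 and 8.42. The heparan sulfate proteoglycan agrin, Agrn, was at 10.41 and 11.09, and the basement membrane collagen Col4a1 at 9.65 and 9.79. Fibronectin, Fn1, and Col1a1 were near background in these libraries, as was Tgfb1. In the TGF-beta pathway 1 of 19 was higher and 1 lower, the signal transducer Smad2 at 7.85 against 7.09 and Ltbp4, which tethers latent TGF-beta to the matrix, at 5.37 against 7.32. The C57BL/6 control was the high library for Ltbp4, since FVB/N stood at 5.78 and 5.87, and averaging its probes gave -0.98. Among adhesion genes Celsr2, a cadherin of planar polarity, was at 5.64 and 7.40, and Cadm1 at 5.49 and 7.13, while Epcam was higher at 7.36 against 6.63. Celsr2 came to -0.73 when its probes were averaged.

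Along the nephron the segment markers lay slightly below 0 except for the loop of Henle. The medians were -0.22 log2 for the S1 and S2 segments of the proximal tubule, -0.28 for S3, 0.12 for the loop, -0.25 for the distal convoluted tubule, -0.06 for principal cells and -0.17 for intercalated cells. In the loop list 6 of 10 members were above 0, but its defining marker Umod, at -0.59, was the 1 member past 1.5-fold. Under a filter at percentile 75 the value for the distal convoluted tubule was 0.14. Hnf4a, the nuclear receptor that sustains the proximal tubule program, was at 12.42 in the diabetic and 13.06 in the control library, and the homeobox gene Irx3 at 9.70 and 10.32. The water channel Aqp4 of principal cells was at 8.26 and 9.10, and Aqp2, the vasopressin-regulated channel, at 7.43 and 7.67. In FVB/N Aqp2 stood at 10.64 in the diabetic and 7.83 in the control library. The tonicity factor Nfat5 was at 7.38 and 8.21, the salt-sensing kinase Wnk4 at 5.96 and 6.67, and the tonicity-responsive chaperone Hspa4l at 7.23 and 6.23. Elf5, a transcription factor of principal cells, was higher at 6.73 against 5.95. The proton pump subunit Atp6v0a1 was lower at 8.61 against 9.48, although its second probe gave -0.07.

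Antioxidant genes driven by NRF2 were not higher in C57BL/6. Of 21 expressed members 0 were at least 1.5-fold higher and 3 lower, with a median of -0.07 log2. Besides Abcc3 they were heme oxygenase, Hmox1, which breaks down heme, at 9.01 in the diabetic and 10.19 in the control library, and the glutathione-synthesis enzyme Gclc at 7.79 and 8.49. The quinone reductase Nqo1, a standard NRF2 readout, was at 6.41 in both. In FVB/N all of Hmox1, Gclc and Nqo1 stood higher in the diabetic library, at 11.14 against 9.08, 8.98 against 7.71 and 7.54 against 6.15 in that order. The list of chaperones and endoplasmic reticulum folding genes had a median of -0.04 over 21. The disulfide isomerase Pdia4 was at 6.83 in the diabetic and 7.96 in the control library. Calnexin, Canx, was at 5.49 and 6.30, and the stress factor Ddit3 at 5.96 and 5.34.

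Most blood markers stood above 0. Of 5 expressed erythroid genes, 3 were 1.5-fold or more above control, with the globin Hbb-b2 at 9.81 in the diabetic and 8.69 in the control library, Hbb-bt at 11.64 and 10.91, and Alas2, the heme-synthesis enzyme of red cell precursors, at 6.87 and 6.15. The platelet chemokine Pf4 was at 7.23 and 6.06. The globin alpha gene Hba-a1 was at 12.66 and 12.25. Below 0 were Slc4a1, which is also on the intercalated cell list, at 10.67 and 10.88, and the platelet gene Ppbp at 5.57 and 5.61. Over the 5 genes the mean log2 level was 10.33 in the diabetic and 9.77 in the control library, but 9.74 and 10.63 in FVB/N. The blood content of each kidney was not given in the sources used here, and the part of blood in the leukocyte genes above was not tested. All 8 expressed genes of the liver list were above 0, with a median of 0.36, although Apob at -0.61 and Apoc2 at -0.71, apolipoproteins also made by liver, are on another list. Transthyretin, Ttr, was at 12.13 in the diabetic and 11.53 in the control library, although albumin was near background in all 4.

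Some of the largest single differences belonged to no list. Fbxw5, a substrate receptor of a cullin ubiquitin ligase, had the largest positive difference, at 10.54 in the diabetic and 7.08 in the control library, a difference of 3.46. Its FVB/N levels were 5.60 and 5.83, so that only the C57BL/6 diabetic library was far above the rest. Among bright genes Timd2, a ferritin receptor of the tubule, was at 9.40 and 8.27, and the ubiquitin ligase Marchf10 at 9.32 and 8.26, although another probe of Marchf10 gave -0.19. On the lower side were the motor protein Myo5a at 7.51 against 8.77, the complement component C8a at 7.28 against 8.51, and Fryl at 7.44 against 8.65. Averaged over their probes Myo5a came to -0.73 and Fryl to -0.39. The phosphatase-like Styxl1 was at 5.09 and 6.96, and Pigu, of the GPI anchor transamidase, at 5.27 and 6.86.

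Genes read by several probes offered a check that single probes do not. Of 1372 genes with at least 2 expressed probes, 16 had every such probe at least 1.5-fold higher and 16 had every one lower. The higher ones included Cdkn1a, Ccng1, Upp2, Noct, Psmd6 and Aif1, together with the macrophage lectin Mgl2 at 6.03 in the diabetic and 5.33 in the control library, Pla1a, a phosphatidylserine lipase, at 10.12 and 9.39, and Cript at 9.96 and 9.23. The lower ones included Acaca, Slc9a8, Slc17a2 and Ece1, the acetyltransferase Crebbp at 6.26 against 7.36, the phosphatase Ppm1l at 7.15 against 8.10, and the homeobox gene Zfhx3 at 7.05 against 7.96. Of the genes with several expressed probes whose brightest was at least 2-fold apart, 6 were higher and 11 lower, and another probe had the opposite sign in 2 of the higher and 6 of the lower ones.

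FVB/N kidneys give a second diabetic and control library, with no sample in common with the first pair. In FVB/N 12.4% of genes were at least 1.5-fold higher in the diabetic library and 13.9% lower, and the median of all genes was -0.10 log2. Of the 95 genes at least 2-fold higher in C57BL/6, 32 were at least 1.5-fold higher in FVB/N as well, 33.7% of the 95 and 2.80% of the 1142 FVB/N genes, and 5 were at least 1.5-fold lower. Of the 91 lower genes 27 were lower in FVB/N, 29.7% of the 91 and 2.11% of 1282, and 15 were higher. Genes within the 1.5-fold limit in FVB/N made up the remaining 58 and 49. The difference between the strains was not tested, and a gene past a limit in one strain alone is not shown to differ between them.

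The rule ranked genes by the smaller in size of their C57BL/6 and FVB/N differences. It named the top 10 in each direction, so their shared direction was set by the choice. Higher in both diabetic libraries were Spink8, Serpina10, Cdkn1a, Lcn2, Fos, Prc1, S100a9 and Sigirr, together with Ch25h, which makes the antiviral hydroxylated cholesterol that limits cholesterol synthesis, and the spliceosome gene Snrnp25. Ch25h was at 7.37 in the diabetic and 6.17 in the control library, and at 7.95 and 6.24 in FVB/N. Snrnp25 was at 7.19 and 5.98, and at 7.08 and 6.01 in FVB/N. Lower in both were the lipid and fat genes Fasn, Scd1, Cidea, Ucp1 and Cox8b, with Cd180, Slc22a7, Spns3, Npr2 and Spats2l. Spats2l was at 5.78 and 7.04, but another probe gave 0.43.

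**Figure D5:**
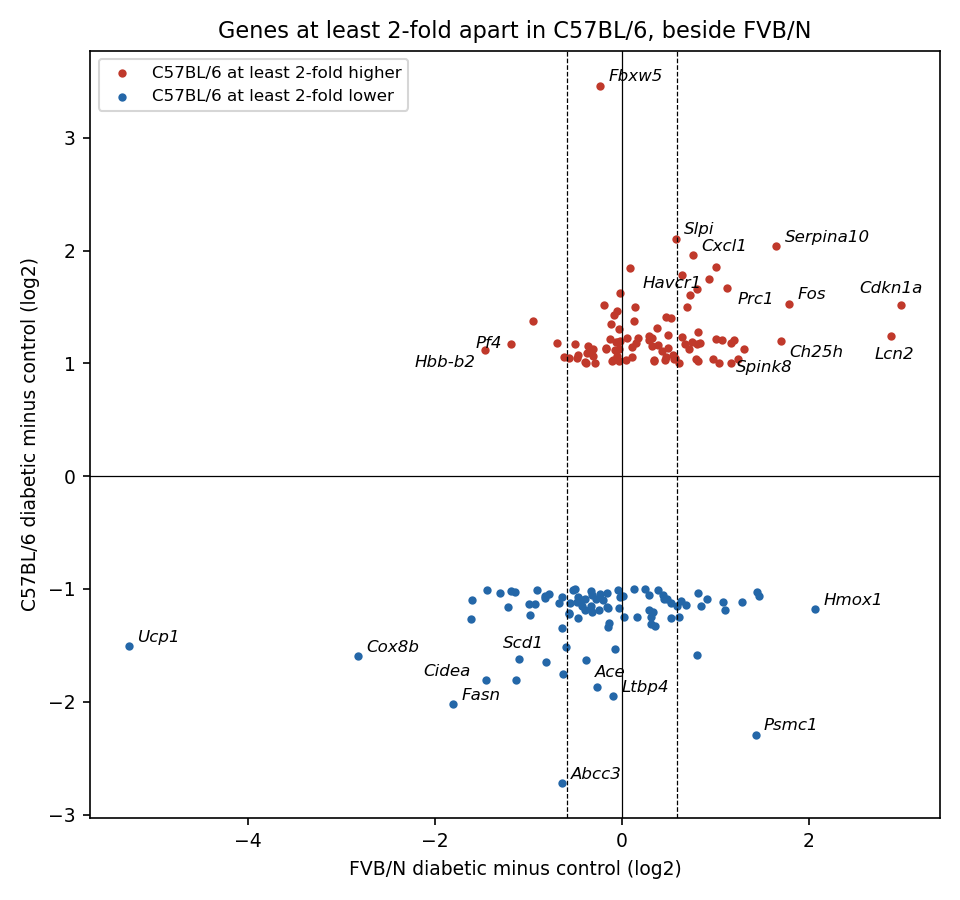
Log2 difference, diabetic minus control, in C57BL/6 (vertical axis) and FVB/N (horizontal axis) for the 95 higher and 91 lower genes at least 2-fold apart in C57BL/6; dashed lines mark 1.5-fold in FVB/N. Cdkn1a and Lcn2 at upper right and Fasn, Cox8b and Ucp1 at lower left lie beyond the lines in both strains, Fbxw5 and Ltbp4 lie between them, and Hmox1 and Psmc1 lie to the right at the bottom with opposite signs.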

How the data were processed

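Whole-kidney total RNA of 4 groups was labelled as biotinylated cRNA and read on Illumina mouse bead arrays, per the labels' protocols. The deposited series values were taken as log2 intensities because they run from 4.45 to 15.84 with near-equal medians. How the authors corrected background and normalized was not given in the sources used here. Of 24613 probes, 20984 had 1 annotated gene, 1 had several and 3628 had none; 15967 genes were covered. The values were used without change. A gene was read by its brightest probe by mean over the 4 libraries and kept where that mean reached the median of all probes.

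The C57BL/6 control value was subtracted from the diabetic one, and genes past 2-fold, or 1.5-fold in 70 lists of pathways and markers, were counted. With 1 library per group no test was run, and the number of arrays limits the precision. The genes compared, the lists and the rules were chosen with earlier results of these data known. Named genes are the 15 largest differences each way and the 10 largest each way among bright genes. Also named were the 10 each way ranked by the smaller difference among a gene's probes, and the 10 ranked by the smaller of the C57BL/6 and FVB/N differences. Up to 6 members of each list, its defining members and checks were added. Promoter windows are from RefSeq on GRCm38.p6, and motifs were matched on both strands. The steps were tested on simulated data. Alternatives were quantile normalization, median centring, loess on intensity (span 0.3), no filter, a filter at percentile 75, a filter on both C57BL/6 libraries, the mean of all probes and the brightest probe in C57BL/6 alone. Python 3.11.15 was used with numpy 2.4.6, pandas 2.3.3, scipy 1.17.1, statsmodels 0.14.6 and matplotlib 3.10.9.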

Additional observations from a re-analysis of the deposited data

Results flagged for a closer look

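A few genes were at least 2-fold apart in opposite directions in the strains, a difference between the strains that was not tested. Heme oxygenase, Hmox1, was at -1.18 log2 in C57BL/6 and 2.07 in FVB/N, diabetic minus control. The proteasome ATPase Psmc1 was at -2.29 and 1.43. The globin Hbb-b2 was at 1.12 and -1.46, and the platelet chemokine Pf4 at 1.17 and -1.18. Probes without an annotated gene were counted as well. Of 1477 such probes above the expression minimum, 13 were at least 2-fold higher in the C57BL/6 diabetic library and 17 at least 2-fold lower. Among the 9201 genes the shares were 1.03% higher and 0.989% lower, so these probes did not stand out from the genes.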

How the results depend on the processing

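The counts of genes at least 2-fold and 1.5-fold apart stayed within 1.5 times those reported under quantile normalization, median centring, loess, no filter, the mean of all probes and the C57BL/6 brightest probe. The main filter is the median over all probes. Under a filter at percentile 75 the counts were 14 higher and 29 lower at 2-fold, and 150 higher and 190 lower at 1.5-fold. That filter compares fewer genes, and bright genes were also called less often. In the brightest quintile by mean C57BL/6 level, 1.58% were at least 1.5-fold higher and 2.44% lower, beside 6.14% and 6.35% of all genes. With both C57BL/6 libraries required to reach that median, 57 genes were higher and 60 lower at 2-fold. Of 64 list medians, 16 changed sign in some setting, 12 of them from within 0.1 of 0. The male kidney list, 0.17 in the main setting, came to -0.17 under the filter at percentile 75, and T and NK cells, -0.23 in the main setting, to 0.01 with both libraries required. The distal convoluted tubule had a median of -0.25 as reported and 0.14 under the filter at percentile 75; the cause was not tested. Of 71 named genes at least 2-fold apart, 54 of the 69 with a value stayed so with all probes averaged, and 0 changed sign in any setting. No paired analysis was possible because each group has 1 library. Array signal near background limits the dim genes.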
